A study of Mus musculus with 8 samples.

Results

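The NFAT factors and calcineurin form the switch by which a rise in cellular calcium reaches the genome of a lymphocyte, and 9 of their genes are described here in mouse B cells. They were taken by symbol, by a rule that uses no measured value, though with earlier results of these data known: the transcription factor genes Nfatc1, Nfatc2, Nfatc3 and Nfat5, the calcineurin inhibitor genes Rcan1 and Rcan3, and the calcineurin subunit genes Ppp3ca, Ppp3cb and Ppp3r1. All 9 were found among the 37583 gene identifiers of the files, and all 9 passed the filter on low counts that left 13964 genes for testing. B cells isolated from spleens of C57BL/6 mice gave 8 RNA-seq libraries. The naive group (3 libraries) holds naive B cells, for which no stimulus is stated. The CpG group (3 libraries, labelled Bregs-CpG) was cultured for 3 days with the oligonucleotide CpG ODN1668, a ligand of the endosomal receptor TLR9. The TLR group (2 libraries, labelled Bregs-TLR) had the CpG culture plus LPS, PMA and ionomycin over its final 5 hours. LPS is a TLR4 ligand, PMA activates protein kinase C, and ionomycin is an ionophore that lets calcium into the cell. The TLR group differs from the CpG group by these 3 agents together, so no change can be assigned to one of them, and no stimulated library lacks CpG.

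In resting lymphocytes the NFATc proteins are phosphorylated and held in the cytoplasm. Calcium bound to calmodulin activates calcineurin, a phosphatase made of a catalytic A subunit and a regulatory B subunit, which strips the phosphates so that NFAT enters the nucleus, often to bind DNA together with AP-1. RCAN proteins bind and restrain calcineurin, and Rcan1 is itself a classical NFAT target through a second, internal start site. In B cells the pathway is driven by the antigen receptor. Nfat5 is the outlying family member, which lacks the calcineurin docking region and is best known for the response to osmotic stress. Since dephosphorylation and nuclear entry act on the proteins, transcript levels do not show where the NFAT proteins were or whether calcineurin was active.

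Promoter sequence is shown for genes that moved in opposite directions and for one that did not pass any test, because the NFAT core site can be searched in it. The windows used here are the 250 bases before a start in RefSeq (build GRCm38.p6), 10 windows for 7 of the 9 members. These coordinates are of that build and not of mm9, which the authors' counts used. Capitals mark the NFAT core GGAAA on either strand (written TTTCC on the other strand), 5′ to 3′ along the gene's strand. The first pair are the upstream start of Rcan1 (chr16:92466170-92466419, minus strand) and its internal start (chr16:92400079-92400328, minus strand).
Rcan1 upstream start: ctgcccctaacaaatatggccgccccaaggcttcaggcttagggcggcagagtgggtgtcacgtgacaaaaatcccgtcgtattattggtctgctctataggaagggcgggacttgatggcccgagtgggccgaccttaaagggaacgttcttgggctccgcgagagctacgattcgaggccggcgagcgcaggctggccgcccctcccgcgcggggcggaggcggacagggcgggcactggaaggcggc
Rcan1 internal start: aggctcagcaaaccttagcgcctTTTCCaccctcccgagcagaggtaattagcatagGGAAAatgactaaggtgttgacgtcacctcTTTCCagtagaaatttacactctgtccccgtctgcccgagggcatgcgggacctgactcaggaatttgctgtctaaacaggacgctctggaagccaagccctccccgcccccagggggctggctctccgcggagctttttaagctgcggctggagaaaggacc
The other windows belong to Rcan3 (chr4:135433806-135434055, minus strand), to the upstream and downstream starts of Nfatc2 (chr2:168601658-168601907 and chr2:168590366-168590615, minus strand) and to Ppp3cb (chr14:20546574-20546823, minus strand).
Rcan3: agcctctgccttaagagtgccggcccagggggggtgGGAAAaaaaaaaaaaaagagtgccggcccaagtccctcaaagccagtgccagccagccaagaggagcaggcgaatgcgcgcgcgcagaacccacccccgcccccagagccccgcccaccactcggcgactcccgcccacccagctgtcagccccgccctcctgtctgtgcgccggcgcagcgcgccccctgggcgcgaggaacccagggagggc
Nfatc2 upstream start: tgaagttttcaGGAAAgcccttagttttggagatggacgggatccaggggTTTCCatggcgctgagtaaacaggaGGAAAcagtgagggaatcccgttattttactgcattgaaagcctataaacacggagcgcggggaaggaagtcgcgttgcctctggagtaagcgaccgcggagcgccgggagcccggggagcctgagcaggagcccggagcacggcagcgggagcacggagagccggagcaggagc
Nfatc2 downstream start: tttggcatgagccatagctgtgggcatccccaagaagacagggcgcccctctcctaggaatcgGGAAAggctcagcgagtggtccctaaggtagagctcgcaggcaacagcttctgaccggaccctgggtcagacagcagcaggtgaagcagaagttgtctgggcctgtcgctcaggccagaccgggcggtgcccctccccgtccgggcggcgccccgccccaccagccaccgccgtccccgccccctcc
Ppp3cb: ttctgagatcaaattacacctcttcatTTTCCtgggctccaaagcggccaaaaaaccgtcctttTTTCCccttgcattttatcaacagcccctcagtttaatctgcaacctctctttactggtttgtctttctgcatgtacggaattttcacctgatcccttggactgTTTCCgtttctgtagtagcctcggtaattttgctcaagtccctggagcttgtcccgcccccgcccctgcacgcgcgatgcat

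The upstream start of Rcan1 held no NFAT core, and the internal start held 3, beginning 227, 193 and 163 bases before it. The internal window also held the AP-1 letters TGANTCA, the one match to them among the 10 member windows. Ppp3cb and the upstream start of Nfatc2 held 3 cores as well. Windows with 3 cores thus belonged to a gene that rose, a gene that fell and a gene that did not pass. So few members cannot decide whether the number of cores goes with direction. No window was used for Nfatc1 and Ppp3ca, whose falls in the final step held in every alternative. Of the 10 member windows, 7 held at least 1 core and 3 held at least 3. Over all 32851 windows of the table, 55.6% held at least 1 core, 6.39% held at least 3 and 6.75% held TGANTCA. A match of letters is a description of the sequence and no evidence of binding. The counts are per gene, so they do not tell which start of Rcan1 or Nfatc2 was used.

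The libraries had 15804311 to 20069272 counts in genes, so 1 count was worth 0.0498 to 0.0633 CPM (counts scaled to a library total of 1000000) before normalization, and every member had at least 154 counts in every library. Replicate 1 of each group carries the library prefix RCa1 in its file name and the other 5 libraries RCa18. In RCa1 libraries 37.5% to 50.2% of all entries tallied by the counting program were alignments that were not unique and counted in no gene, against 14.7% to 21.5% in RCa18 libraries. The sources used here do not say what the prefix stands for, and ratios within each prefix are given below. The labels name no animal or culture per library, so p-values measure the spread between these libraries, which may be technical. The label of B cells was checked with Cd79a, Cd79b, Ms4a1, Pax5 and Cd22, none of which was at 0 in any library. Their summed level was 7605 to 8113 CPM in naive and 6894 to 10287 CPM in CpG libraries, but 2084 and 2185 CPM in TLR libraries. In bulk RNA, fewer cells of a type and less RNA of a gene per cell cannot be told apart.

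Over all libraries, transcripts of the 3 NFATc factors were called lower in both steps. Of the calcineurin subunit genes among the 9 members, only Ppp3ca was called, as lower in the final step and in TLR against naive. Against naive cells, Nfatc1, Nfatc2 and Nfatc3 were lower with CpG, and no member was higher. With the final LPS, PMA and ionomycin step, these 3 genes and Ppp3ca fell, while Rcan1 and Rcan3 rose 1.44-fold and 1.45-fold. Some of these calls were lost in alternative fits, as given below by gene. They are Nfatc3 with CpG, and Nfatc2, Nfatc3, Rcan1 and Rcan3 in the final step. The fitted change from naive to TLR was largest in size for Nfatc2 and Nfatc1 among the 9 members, which ended 5.89-fold and 5.80-fold lower, and Ppp3cb and Ppp3r1 did not pass any of the 3 tests.

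**Figure D1:**
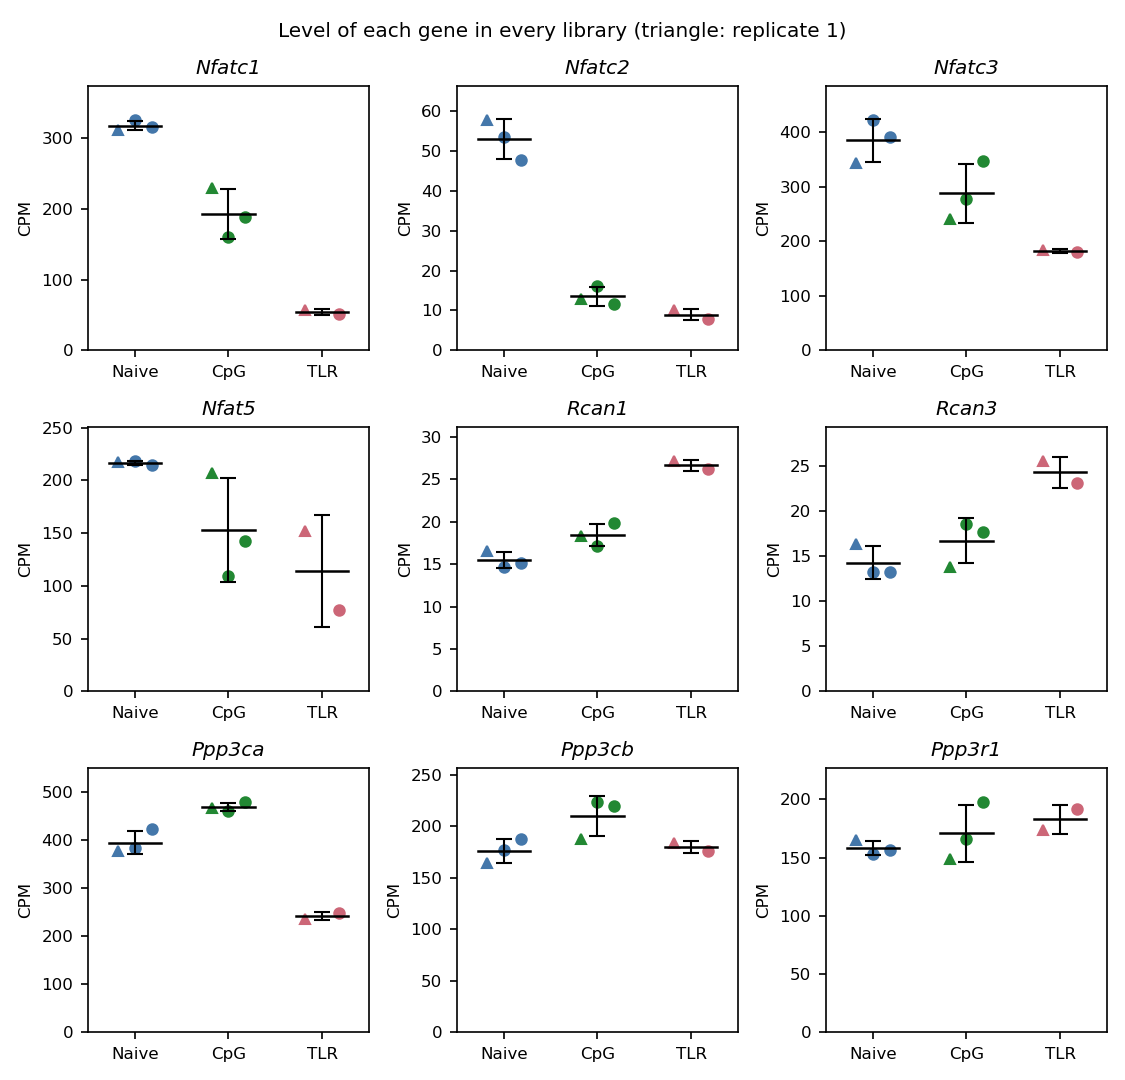
Level of each of the 9 genes in every library, in CPM scaled by TMM factors (y axis from 0) by group (x axis); points are libraries (triangles: replicate 1), the long line is the group mean and the bar 1 SD over 3 naive, 3 CpG or 2 TLR libraries. Nfatc1 stepped down from 318 to 193 and 54.8 CPM in the group means, and Rcan1 and Rcan3 had their highest libraries in the TLR group.

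Nfatc1 encodes NFATc1 (NFAT2), the family member best known in B cells for its role in antigen receptor responses and in the B-1a lineage. In replicate order, the naive libraries held 312, 325 and 316 CPM, the CpG libraries 230, 160 and 189 CPM, and the TLR libraries 57.8 and 51.8 CPM. The 3 groups did not overlap. The log2 fold change was -0.72 ± 0.14 (SE) for CpG against naive (edgeR adjusted p = 0.00215) and -1.82 ± 0.16 for TLR against CpG (edgeR adjusted p = 3.29e-05). Both calls held in every alternative fit and without any 1 library (adjusted p at most 0.00937 and 0.000864 without a library). The B cell markers did not pass with CpG (0 of 5 called by edgeR, median log2 fold change -0.012), but all 5 fell in TLR against CpG with a median of -1.54, beside -1.82 for Nfatc1. The part of that general fall in the fall of Nfatc1 was not tested.

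Nfatc2 encodes NFATc2 (NFAT1), which is abundant in resting T cells and is present in B cells. It stood at 57.6, 53.5 and 47.7 CPM in naive libraries, at 12.8, 16.2 and 11.7 CPM in CpG libraries, and at 10.02 and 7.95 CPM in TLR libraries. Every naive library was above every CpG library by a wide margin, while the CpG and TLR libraries lay close together without overlap. It fell by 1.96 ± 0.16 on the log2 scale with CpG (edgeR adjusted p = 2.05e-05), and this call held in every alternative. The further fall of 0.60 ± 0.19 in the TLR group (edgeR adjusted p = 0.0307) was lost without naive replicate 2, CpG replicate 2 or TLR replicate 2 (adjusted p = 0.0533, 0.0845 and 0.203) and when only the CpG and TLR libraries were fitted (adjusted p = 0.0882).

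Since T cells express Nfatc2, markers of other cells are given beside it. Of 10 T cell markers 8 fell with CpG, from a sum of 9.17 to 31.2 CPM in naive libraries to 2.13 to 4.75 CPM, with Cd8a at 0 in all 3 CpG libraries. All 8 natural killer cell markers fell (17.2 to 78.8 CPM against 1.74 to 2.99 CPM), with Ncr1 and Gzma at 0 in every CpG and TLR library. Macrophage and monocyte markers fell in 10 of 10 (1283, 312 and 167 CPM in the naive libraries in replicate order, against 17.2 to 37.4 CPM). The part of these cells in the fall of Nfatc2 was not tested. In TLR against CpG none of the 10 T cell and none of the 8 natural killer cell markers was called by edgeR.

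Nfatc3 encodes NFATc3 (NFAT4), the calcineurin-dependent factor with the largest share of NFATc transcripts in the TLR group. It had 343, 421 and 391 CPM in naive, 240, 277 and 346 CPM in CpG and 185 and 180 CPM in TLR libraries. The naive and CpG libraries overlapped, with CpG replicate 3 above naive replicate 1, whereas both TLR libraries lay below all others. Its fall with CpG of 0.42 ± 0.15 on the log2 scale passed narrowly (edgeR adjusted p = 0.0408). That call was lost without naive replicate 2 or 3, CpG replicate 1 or 2, or either TLR library (adjusted p = 0.134, 0.0991, 0.0938, 0.112, 0.0608 and 0.0623), with the naive and CpG libraries alone (0.0536) and in the RCa18 libraries (0.0561). In TLR against CpG it fell by 0.66 ± 0.17 (edgeR adjusted p = 0.0116), a call lost without either TLR library (adjusted p = 0.0628 without the first and 0.0719 without the second). The fall from naive to TLR, 1.08 ± 0.17 (edgeR adjusted p = 0.000403), held in every alternative. An exon of Nfatc3 shares 219 bases (1.87% of its exon length) with Esrp2 on the opposite strand, and the counting ignored strand.

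Nfat5 encodes the osmotic stress factor and showed the largest SD relative to its mean among the 9 in both stimulated groups (32.2% with CpG and 46.4% in the TLR group). Naive libraries were tight at 217, 218 and 214 CPM, CpG libraries stood at 207, 110 and 142 CPM, and TLR libraries at 152 and 76.9 CPM. In both stimulated groups replicate 1, the RCa1 library, was the highest. Neither step passed over all libraries (log2 fold change -0.50, 95% interval -1.09 to 0.09, edgeR adjusted p = 0.148 with CpG; -0.42, interval -1.08 to 0.25, edgeR adjusted p = 0.300 for TLR against CpG). Among RCa18 libraries alone both steps were called, at -0.78 and -0.72 (edgeR adjusted p = 0.00710 and 0.0275). They were also called when the RCa1 library of the treated group was left out (-0.78 without CpG replicate 1, adjusted p = 0.0353; -0.99 without TLR replicate 1, adjusted p = 0.0450), and CpG against naive when the prefix entered the fit (adjusted p = 0.0344). TLR against naive gave -0.92 ± 0.30 (edgeR adjusted p = 0.0236), lost without TLR replicate 2 (-0.51, adjusted p = 0.185) and -1.49 without TLR replicate 1. What the RCa1 libraries have in common beyond their prefix and their share of reads with several alignments was not tested.

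Both inhibitor genes rose in the final step. Rcan1 encodes regulator of calcineurin 1. It had 16.5, 14.7 and 15.1 CPM in naive, 18.4, 17.1 and 19.8 CPM in CpG and 27.1 and 26.2 CPM in TLR libraries. The order naive, CpG, TLR held without overlap, although the step with CpG did not pass (log2 fold change 0.25, interval -0.04 to 0.55, edgeR adjusted p = 0.140). TLR against CpG gave 0.53 ± 0.14, a 1.44-fold rise (edgeR adjusted p = 0.0159), which was lost without TLR replicate 1 or 2 (adjusted p = 0.0917 and 0.0671) and in the RCa18 libraries (adjusted p = 0.0648). TLR against naive, a 1.72-fold rise (0.79 ± 0.14, edgeR adjusted p = 0.00104), held in every alternative. These values sum over the upstream and internal starts whose sequences are shown above.

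Rcan3 encodes the third mammalian regulator of calcineurin. It had 16.4, 13.3 and 13.3 CPM in naive, 13.9, 18.6 and 17.7 CPM in CpG and 25.5 and 23.1 CPM in TLR libraries. Naive and CpG libraries overlapped, and both TLR libraries lay above all others. With CpG it did not pass (log2 fold change 0.23, interval -0.15 to 0.60, edgeR adjusted p = 0.293), but it was called as higher among the RCa18 libraries (0.45, adjusted p = 0.0328), while the RCa1 pair went the other way (-0.24). In TLR against CpG it rose 1.45-fold (0.54 ± 0.18, edgeR adjusted p = 0.0407). That call was lost without any 1 of naive replicates 2 and 3, CpG replicates 1 and 3 or the TLR replicates (adjusted p 0.0593 to 0.199), with no filter (0.0634), with only the 2 groups compared (0.0634) and in the RCa18 libraries (0.133). TLR against naive gave 0.77 ± 0.18 (edgeR adjusted p = 0.00474) and held in every alternative. The third regulator gene, Rcan2, had 14 counts over the naive, 1 over the CpG and 2 over the TLR libraries and was too low to test.

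Among the calcineurin subunits, the catalytic gene Ppp3ca fell in the final step. Ppp3ca encodes the A alpha catalytic subunit. It had 377, 385 and 422 CPM in naive, 467, 462 and 478 CPM in CpG and 236 and 247 CPM in TLR libraries. The 3 groups did not overlap, with CpG highest. The step with CpG did not pass (log2 fold change 0.25, interval 0.02 to 0.48, edgeR adjusted p = 0.0717; 0.0401 when the prefix entered the fit). TLR against CpG gave -0.96 ± 0.12, or 1.94-fold lower (edgeR adjusted p = 0.000196), and TLR against naive -0.71 ± 0.12 (edgeR adjusted p = 0.000517), and both held in every alternative.

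Ppp3cb, the A beta catalytic subunit gene, had 164, 177 and 187 CPM in naive, 188, 223 and 220 CPM in CpG and 184 and 176 CPM in TLR libraries. The CpG libraries lay above the others, CpG replicate 1 only just. None of its 3 comparisons passed (log2 fold change 0.26, interval 0.01 to 0.50, edgeR adjusted p = 0.0796 with CpG; -0.22, interval -0.50 to 0.05, adjusted p = 0.175 for TLR against CpG; 0.03, interval -0.24 to 0.30, adjusted p = 0.834 for TLR against naive). Without CpG replicate 1 the first and second were called (0.34, adjusted p = 0.0182, and -0.30, adjusted p = 0.0496). CpG against naive was also called when the prefix entered the fit (adjusted p = 0.0425) and in the RCa18 libraries (adjusted p = 0.0389).

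Ppp3r1 encodes the regulatory B subunit, without which the catalytic subunits are not active. It had 165, 153 and 157 CPM in naive, 149, 166 and 197 CPM in CpG and 174 and 192 CPM in TLR libraries. The CpG group held both the lowest and the highest of the 8 libraries. Its log2 fold changes were 0.11 with CpG (interval -0.16 to 0.38, edgeR adjusted p = 0.476), 0.10 for TLR against CpG (interval -0.20 to 0.40, adjusted p = 0.600) and 0.21 for TLR against naive (interval -0.09 to 0.51, adjusted p = 0.197). The upper bounds leave room for rises of up to 0.51 on the log2 scale. Exons of Ppp3r1 share 462 bases (14.3% of its exon length) with Wdr92 on the same strand, where reads may have been counted as ambiguous.

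**Figure D2:**
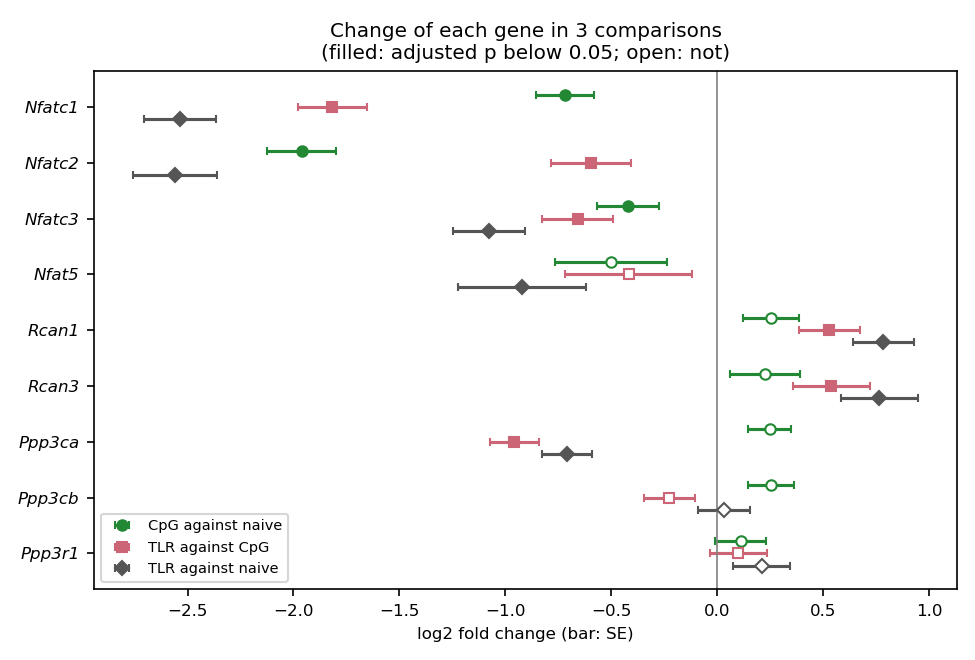
Log2 fold change (x axis, with SE bars) of each gene (y axis) for CpG against naive (circles), TLR against CpG (squares) and TLR against naive (diamonds); filled symbols have an edgeR adjusted p below 0.05. The NFATc genes lie left of 0 in all 3 comparisons, from -0.42 for Nfatc3 with CpG to -2.56 for Nfatc2 in TLR against naive, and Rcan1 and Rcan3 lie right of 0.

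Counted over the 9 members, 3 were called with CpG (0 higher, 3 lower; 33.3% of members), where 45.5% of all tested genes were called, 23.5% higher and 21.9% lower. In TLR against CpG 6 were called (2 higher, 4 lower; 66.7%), against 38.8% of all tested genes, 19.0% higher and 19.8% lower. In TLR against naive 7 were called (2 higher, 5 lower; 77.8%), against 61.2% of all tested genes, 31.6% higher and 29.7% lower. The groups' libraries did not overlap for 6, 7 and 8 of the 9 members in these comparisons, where 56.0%, 59.3% and 78.1% of all tested genes showed no overlap. The members' median log2 fold changes were 0.11, -0.42 and -0.71, beside 0.01, -0.02 and 0.01 over all tested genes. No test compares the members with other genes. TLR against CpG and TLR against naive share the TLR libraries, and both TLR against CpG and CpG against naive use the CpG libraries. Without TLR replicate 2, 2 members (Nfatc1 and Ppp3ca) were called in TLR against CpG.

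Within the library prefixes, all members called in a comparison went the same way in the RCa1 and in the RCa18 libraries (3 of 3, 6 of 6 and 7 of 7). Of all 9 members the same held for 7, 9 and 8. The exceptions, Rcan3 and Ppp3r1 with CpG and Ppp3cb in TLR against naive, were not called. For Nfatc1 the log2 ratio of mean CPM was -0.44 in RCa1 and -0.87 in RCa18 libraries with CpG, and -1.99 and -1.75 in TLR against CpG. Each RCa1 ratio compares 1 library with 1 library and carries no error. The RCa18 ratios that involve the TLR group also rest on 1 TLR library. The calls were made on these same libraries, so agreement within the prefixes is no independent support for them. The 3 members called with CpG were also called with the prefix as a term, together with Nfat5, Ppp3ca and Ppp3cb (6 of 9).

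Levels of different genes were compared per kilobase of exon, with lengths from GENCODE M21, which may differ from the annotation the counts were made with. In naive cells the order was Ppp3r1 (49.0 ± 1.92 CPM per kb, SD, n = 3), Nfatc1 (42.5 ± 0.889), Ppp3ca (39.6 ± 2.42), Nfatc3 (32.8 ± 3.35), Ppp3cb (19.99 ± 1.32), Nfat5 (11.8 ± 0.100), Rcan1 (5.01 ± 0.303), Nfatc2 (5.00 ± 0.470) and Rcan3 (2.80 ± 0.355). Nfatc1 and Ppp3ca, and Rcan1 and Nfatc2, overlapped between libraries, and the other neighbours did not. In CpG libraries Ppp3r1 (52.9 ± 7.62 CPM per kb, SD, n = 3) and Ppp3ca (46.98 ± 0.864) overlapped at the top, followed by Nfatc1 (25.9 ± 4.69), Nfatc3 (24.5 ± 4.61) and Ppp3cb (23.9 ± 2.22), which overlapped as neighbours, and Nfatc2 was last (1.28 ± 0.221). In TLR libraries Ppp3r1 (56.7 ± 3.85 CPM per kb, SD, n = 2) and Ppp3ca (24.2 ± 0.834) led, Nfatc1 (7.34 ± 0.570) lay below Rcan1 (8.64 ± 0.216) without overlap, and Nfatc2 was last (0.849 ± 0.138). Nfatc1 thus ranked second of the 9 genes in naive libraries and sixth in TLR libraries, where it overlapped with Nfat5.

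The summed level of Nfatc1, Nfatc2 and Nfatc3 per kilobase was 80.4 ± 4.00 CPM per kb in naive, 51.7 ± 4.71 in CpG and 23.7 ± 1.01 in TLR libraries. Nfatc1 made up 53.0% ± 1.58 (SD, n = 3) of this sum in naive libraries, 50.01% ± 7.55 (n = 3) in CpG libraries and 30.9% ± 1.09 (n = 2) in TLR libraries. Nfatc3 took 40.8% ± 2.25, 47.5% ± 7.43 and 65.5% ± 1.52, and Nfatc2 6.24% ± 0.775, 2.52% ± 0.679 and 3.57% ± 0.431. The naive and CpG shares of Nfatc1 overlapped (51.5% to 54.7% and 45.2% to 58.7%), and both TLR shares (30.1% and 31.7%) lay below all of them. In CPM not divided by exon length, Nfatc3 was the largest part in every group. Its mean shares were then 50.9%, 58.0% and 74.1% in naive, CpG and TLR libraries, against 42.1%, 39.2% and 22.3% for Nfatc1. Which of the 2 was larger in naive and CpG libraries thus depends on the exon lengths used. For the catalytic subunits the pool also holds Ppp3cc, the A gamma gene, a pathway gene outside the 9 members. Ppp3cc was called higher with CpG (log2 fold change 0.41 ± 0.14, edgeR adjusted p = 0.0363), a call lost without some single libraries. Over all fits that left out a library, its log2 fold change with CpG was 0.26 to 0.50. The catalytic sum was 99.97 ± 4.29 CPM per kb in naive, 124 ± 11.3 in CpG and 91.7 ± 4.56 in TLR libraries. The share of Ppp3ca in it was 39.6% ± 1.78, 37.9% ± 2.88 and 26.4% ± 0.403, and that of Ppp3cc 40.4% ± 3.08, 42.9% ± 3.38 and 51.3% ± 2.19. These shares are descriptions and were not tested.

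**Figure D3:**
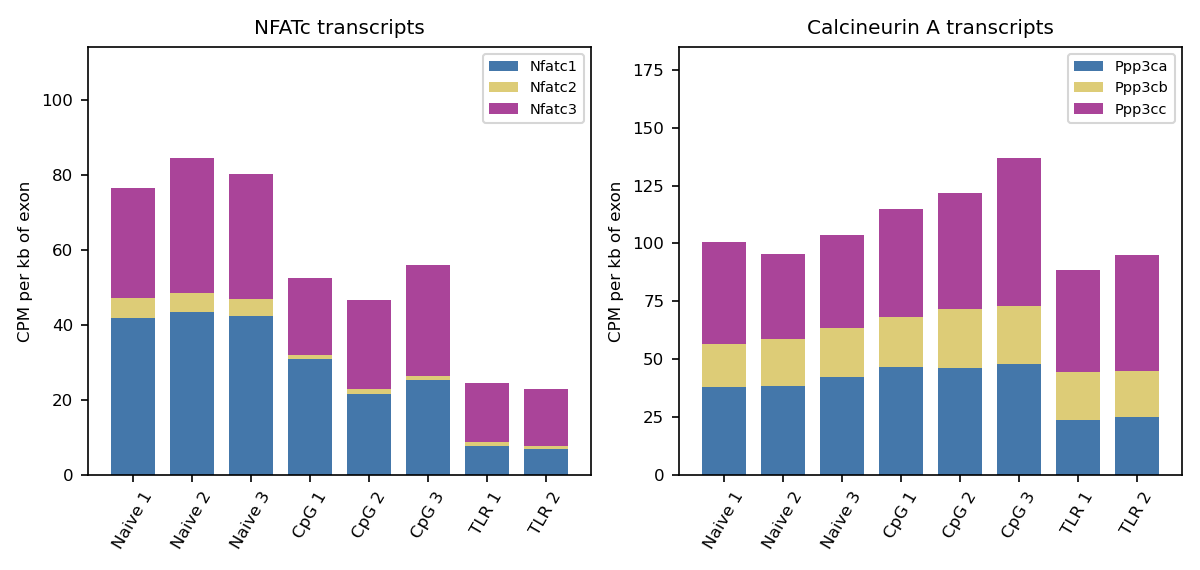
Stacked levels per kilobase of exon (y axis, CPM per kb, from 0) in each library (x axis) of the 3 NFATc genes (left) and of the 3 calcineurin A genes (right). The NFATc stack shrinks from a mean of 80.4 in naive to 23.7 CPM per kb in TLR libraries, with Nfatc3 as its largest part there, whereas the calcineurin A stack stays between means of 91.7 and 124 CPM per kb.

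Likeness of pattern was described by Pearson's r of log2 CPM over the 8 libraries among tested genes whose mean reached 8 CPM. The 8 libraries fall into 3 groups, so r mostly follows the order of the group means, and no p is given. Closest to Nfatc1 were Cacna1i, a voltage-gated calcium channel subunit gene (r = 0.998; 293, 78.5 and 1.39 CPM in the group means of naive, CpG and TLR), the dynein gene Dnah8 (r = 0.998) and Mrtfa, a coactivator of serum response factor (r = 0.998; 175, 140 and 80.7 CPM). Closest to Rcan1 were Cbarp, which encodes a regulator of voltage-gated calcium channels (r = 0.994; 4.84, 10.4 and 41.0 CPM), the noncoding RNA Snhg15 (r = 0.992) and Phgdh, an enzyme of serine synthesis (r = 0.991; 25.7, 63.0 and 228 CPM). Among the members, Nfatc1 and Rcan1 ran in opposite order over the same libraries (r = -0.957), as did Nfatc1 and Rcan3 (r = -0.929), and Nfatc1 and Ppp3cb showed no such order (r = -0.03).

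Other genes of the pathway came from 5 lists with 56 genes, of which 46 were tested. With CpG 24 were called (10 higher, 14 lower; 52.2%), in TLR against CpG 25 (13 higher, 12 lower; 54.3%; 16 without TLR replicate 1) and in TLR against naive 32 (16 higher, 16 lower; 69.6%). The median log2 fold changes were -0.10, -0.02 and -0.06. The shares of all tested genes given above are the background of these counts.

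Among genes that set up the calcium signal, more fell than rose in both steps. Of the 10 tested, 3 (30.0%) fell and none rose with CpG (median log2 fold change -0.17). Over all tested genes 21.9% fell and 23.5% rose with CpG, so the count of falls is near that share. In TLR against CpG 6 fell and 2 rose (median -0.70), where 19.8% of all tested genes fell and 19.0% rose. The same 6 were lower and 2 higher in TLR against naive (median -0.98), beside 29.7% and 31.6% of all tested genes. Itpr2 and Itpr1 encode IP3 receptors, which release calcium from the endoplasmic reticulum. Itpr2 went from 180 ± 16.2 to 92.8 ± 4.90 and 35.4 ± 1.73 CPM (naive, CpG and TLR, SD, n = 3, 3 and 2) and passed in both steps (edgeR adjusted p = 9.11e-05 and 3.05e-05). Itpr1 went from 250 ± 40.8 to 155 ± 19.9 and 78.1 ± 0.888 CPM, with a call in both steps. Plcg2, the phospholipase that makes IP3 behind the B cell receptor, stood at 567 ± 59.8 and 577 ± 52.0 CPM in naive and CpG libraries and fell to 216 ± 34.5 CPM in the TLR group (log2 fold change -1.41 ± 0.16, edgeR adjusted p = 0.000128). Among the store-operated channel genes, Orai2 fell from 75.4 ± 1.36 to 49.7 ± 11.7 and 12.1 ± 0.407 CPM (edgeR adjusted p = 0.0102 and 4.42e-05). Orai1 (41.3 ± 7.58 CPM in TLR libraries) and Plcg1 (75.04 ± 5.80 CPM) were the 2 that rose in the final step (edgeR adjusted p = 0.0313 and 0.0117). The call of Orai1 was lost without CpG replicate 2 or 3 or TLR replicate 1 (adjusted p up to 0.268), and that of Plcg1 without TLR replicate 1 (adjusted p = 0.0988). The B cell markers fell in the same comparison, and their part in these falls was not tested.

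Kinases that return NFAT to the cytoplasm changed in both directions. Of 11 tested genes of this kind, which include NFAT scaffolds and the exporter Xpo1, 2 rose and 3 fell with CpG (median 0.02), 4 rose and 4 fell in TLR against CpG (median 0.25), and 6 rose and 5 fell in TLR against naive (median 0.40). These were 45.5%, 72.7% and 100% of the list, beside 45.5%, 38.8% and 61.2% of all tested genes called. Dyrk1a and Dyrk2, kinases that prime NFAT for export, fell with CpG from 201 ± 18.6 to 123 ± 11.7 CPM and from 44.8 ± 1.22 to 21.9 ± 2.10 CPM (edgeR adjusted p = 0.000773 and 0.000119). Dyrk1b fell in the final step from 15.9 ± 3.98 to 4.59 ± 1.67 CPM (edgeR adjusted p = 0.000830). Lrrk2, reported as a negative regulator of NFAT and a gene of mature B cells, fell from 389 ± 2.32 to 207 ± 24.9 and 48.2 ± 5.49 CPM. Csnk1e, casein kinase 1 epsilon, rose from 33.5 ± 2.69 to 44.1 ± 3.13 and 101 ± 10.9 CPM (edgeR adjusted p = 0.0195 and 8.16e-05). Its first step was lost without naive replicate 2 or CpG replicate 3 (adjusted p = 0.0935 and 0.0578). Exons of Csnk1e share 4.05% of their length with an antisense gene.

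Among partners of calcineurin, the largest rises were in the immunophilin genes Fkbp1a and Ppia. Of 10 tested, 3 rose and 2 fell with CpG (median 0.09), 2 rose and 1 fell in TLR against CpG (median -0.10), and 2 rose and 2 fell in TLR against naive (median 0.03). Fkbp1a, which encodes FKBP12, the target of tacrolimus, rose from 62.3 ± 3.17 to 105 ± 15.7 and 273 ± 14.0 CPM (edgeR adjusted p = 0.000915 and 5.44e-05). Ppia, cyclophilin A, the target of cyclosporin, stood at 61.2 ± 5.16 and 66.6 ± 21.98 CPM and rose to 136 ± 9.57 CPM in the TLR group (edgeR adjusted p = 0.00732; 0.0517 without TLR replicate 1 and 0.0519 in the RCa18 libraries). Ppia has many processed copies, so reads lost to several alignments leave its level uncertain. Akap5, an anchor of calcineurin, fell with CpG from 8.68 ± 1.38 to 1.53 ± 0.605 CPM (edgeR adjusted p = 0.000611). In TLR against naive its log2 fold change was -3.58, or -4.24 without TLR replicate 2. Calm3, a calmodulin gene, rose with CpG (log2 fold change 0.43 ± 0.13, edgeR adjusted p = 0.0213), a call lost without naive replicate 1 or 2 or CpG replicate 2 (adjusted p = 0.0703, 0.0753 and 0.0700). Chp1 fell in TLR against CpG (-0.53 ± 0.13, edgeR adjusted p = 0.0103; 0.0888 without TLR replicate 1). Nfatc4 and the testis subunit Ppp3r2 had 0 counts in all 8 libraries.

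**Figure D4:**
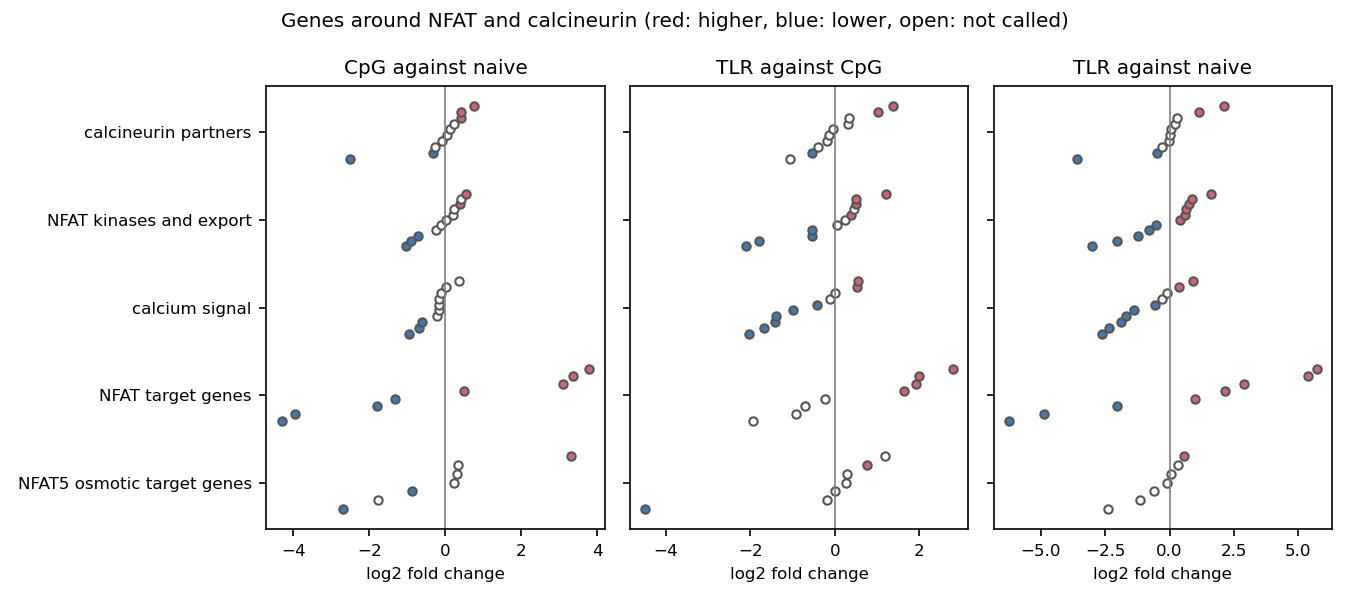
Log2 fold change (x axis, a scale of its own in each panel) of the 46 tested pathway genes by list (y axis) in the 3 comparisons; red points were called higher, blue lower and open points not called by edgeR. In TLR against CpG, 6 of the 10 calcium signal genes are blue. None of the 8 NFAT target genes is, but Ifng and Fasl had 3 and 1 counts over the CpG libraries and almost no room to fall. Egr3 lies at -0.71 there as an open point.

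Of the NFAT target genes known from T cells, some were too low to test in these B cells. Of 14 listed, 8 were tested, and Il2, Il3, Il4, Il13, Csf2 and Cd40lg had at most 13 counts over any group. With CpG 4 rose and 4 fell (median -0.41). In TLR against CpG 4 rose and none fell (median 0.70), and in TLR against naive 5 rose and 3 fell (median 1.57). Of the 8, Ifng and Fasl had 3 and 1 counts over the CpG libraries, with almost no room to fall in TLR against CpG. Ptgs2, 1 of the 4 that rose there, had 22 counts over the CpG and 64 over the TLR libraries. Of these 64, TLR replicate 2 held 49. Il2ra, the IL-2 receptor alpha chain, rose from 5.77 ± 1.13 to 80.1 ± 30.8 and 302 ± 7.90 CPM (log2 fold change 3.796 ± 0.29 with CpG and 1.91 ± 0.27 in the final step, edgeR adjusted p = 1.14e-05 and 0.000461). Tnf, which encodes the cytokine TNF, fell from 23.8 ± 1.73 to 6.87 ± 0.938 CPM with CpG and rose to 47.8 ± 7.58 CPM in the TLR group (edgeR adjusted p = 2.79e-05 and 6.02e-06). The zinc finger genes Egr2 and Egr3, both NFAT targets in T cells, differed in TLR against naive, where Egr2 rose (12.4 ± 1.72 to 54.5 ± 5.23 CPM, edgeR adjusted p = 4.92e-06) and Egr3 fell (48.4 ± 10.3 to 11.8 ± 4.01 CPM, edgeR adjusted p = 0.000128). Pdcd1, which encodes PD-1, rose with CpG from 0.639 ± 0.321 to 5.54 ± 2.66 CPM (edgeR adjusted p = 0.000702). Ifng and Fasl, 2 of the genes called lower with CpG, had 56 and 29 counts over the naive and 3 and 1 over the CpG libraries, ratios of 16.8 (exact 95% counting interval 5.47 to 84.0) and 26.1 (4.33 to 1067). They are also natural killer cell genes, and the natural killer cell markers fell with them. Whether that bears on them was not tested.

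Osmotic target genes of Nfat5 did not follow a common course. Of 7 tested, 1 rose and 2 fell with CpG (median 0.22), 1 rose and 1 fell in TLR against CpG (median 0.26), and 1 rose in TLR against naive (median -0.11). These were 42.9%, 28.6% and 14.3% of the list, beside 45.5%, 38.8% and 61.2% of all tested genes called. Slc5a3, the inositol transporter gene, which shares 1.46% of its exon length with Mrps6 on the same strand, fell from 9.69 ± 2.26 to 5.30 ± 0.529 CPM with CpG (edgeR adjusted p = 0.0115; 0.0508 without naive replicate 3). It then rose to 9.01 ± 0.472 CPM in the TLR group (edgeR adjusted p = 0.0356), a call lost when any 1 of 6 libraries was left out (naive replicate 2 or 3, CpG replicate 2 or 3, TLR replicate 1 or 2; adjusted p 0.0527 to 0.156). Slc38a2, an amino acid transporter gene, was higher in TLR than in naive libraries (505 ± 117 against 341 ± 54.5 CPM, edgeR adjusted p = 0.0206). Its log2 fold change of 0.57 was 0.18 in the RCa18 libraries (adjusted p = 0.297), 0.43 without naive replicate 1 (adjusted p = 0.0691) and 0.32 without TLR replicate 1 (adjusted p = 0.226). Slc6a12, the betaine transporter gene, had 4, 38 and 1 counts over the naive, CpG and TLR libraries. CpG exceeded TLR by a ratio of 26.8 (exact 95% counting interval 4.53 to 1085), and its calls in both steps were lost in the RCa18 libraries (adjusted p = 0.0526 and 0.131). Its call in TLR against CpG was also lost without TLR replicate 1 or 2 (adjusted p = 0.106 and 0.0514). Hspa1b, an inducible heat shock gene with a near-identical neighbour, Hspa1a, was called lower with CpG (edgeR adjusted p = 0.0469) at 7.13 ± 6.02 and 1.10 ± 0.177 CPM, and that call was lost without any 1 of 6 libraries (naive replicate 2 or 3, any CpG replicate, or TLR replicate 2; adjusted p 0.0507 to 0.139). Its naive and CpG libraries overlapped. Akr1b3 and Slc6a6, aldose reductase and the taurine transporter, did not pass over all libraries in any comparison, but Akr1b3 was called higher in some alternatives. With CpG these were the prefix term, the RCa18 libraries and leaving out naive replicate 1 (adjusted p = 0.0429 for the last). In TLR against naive they were the RCa18 libraries and leaving out naive replicate 1 (adjusted p = 0.0403) or CpG replicate 1.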

How the data were processed

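Polyadenylated RNA of 8 libraries was sequenced with a strand-marking kit. The submitters' processing notes name STAR, HTSeq, edgeR and build mm9. Their versions and the annotation are not stated. The authors deposited unnormalized read counts for each gene, made without regard to strand, as the files are marked. The 5 HTSeq summary entries of each file stayed out of totals and tests (reads in no gene were 7.84% to 15.0%, ambiguous reads 1.29% to 2.15%). GENCODE M21 (GRCm38) gave symbols for 32860 of 37583 identifiers and all exon lengths.

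Counts were tested with edgeR 4.0.16 in R 4.3.3 after filterByExpr (13964 genes) and TMM scaling, in 1 quasi-likelihood model, in which every group of the 8 libraries had its own mean. A gene was called at a Benjamini-Hochberg adjusted p below 0.05 over all 13964 genes. SE was taken from log2 fold change and F statistic, and 95% intervals from the t distribution of the fit. Correlations used log2 CPM with a prior count of 2. Counting intervals cover counting error only. The fit was tested on simulated data. No replicates were as alike as sampling noise alone would make them.

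One gene of the B cell marker list is not reported here. The members and lists were chosen with earlier results of these data known. By the naming rule, each list gave up to 3 called genes per comparison by smallest p (2 where none was called). Orai1, Plcg1, Ppp3cc, Ifng, Fasl, Ptgs2, Akr1b3, Slc6a6 and the genes too low to test were named after their values were seen. The alternatives were DESeq2 1.42.0, RLE scaling, unscaled library sizes, no filter, a filter at a mean of 1 CPM, a fit of 2 groups, a replicate block, a prefix term, RCa18 libraries by themselves, and leaving out each library.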

Additional observations from a re-analysis of the deposited data

How the results depend on the processing

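Among results for single members under the 17 alternatives, 419 stayed on their side of the threshold, 28 lost a call and 12 gained one, and no called change turned direction. Of the 419, 5 changed sign near 0 without a call: Ppp3cb in TLR against naive (0.03; -0.02 with DESeq2 and with RLE factors, -0.05 in the RCa18 libraries and -0.03 without naive replicate 1) and Ppp3r1 with CpG (0.11; -0.0054 without CpG replicate 3). Pathway genes without a call changed sign in 66 results. With CpG, the number of members called was 3, and 6 with the prefix as a term (Nfat5, Ppp3ca and Ppp3cb added) and 5 in the RCa18 libraries (Nfatc3 lost; Nfat5, Ppp3cb and Rcan3 added), and 2 to 4 when a library was left out. In TLR against CpG it was 6, and 2 to 6 when a library was left out, the lowest without TLR replicate 2. In TLR against naive it was 7, and 6 or 7. Pathway genes called numbered 24 with CpG (17 to 25 without a library), 25 in TLR against CpG (16 to 26) and 32 in TLR against naive (27 to 34). When a TLR library was left out, the lone TLR library was assumed to vary like the other groups, and fewer samples alone can end a call. In other cases the cause was not tested.

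With the replicate number as a block, 4, 5 and 7 members and 24, 25 and 31 pathway genes were called; Nfat5 with CpG was gained (-0.57, adjusted p = 0.0305) and Rcan3 in TLR against CpG was lost (0.53, adjusted p = 0.0772). Other scalings (RLE, library size alone, DESeq2) gave 3, 6 and 7 members. Same-numbered libraries were not treated as pairs: the correlation of their deviations from the group means was 0.00359 to 0.325, and 2 of these 7 values were below 0.1. Among all pairs of libraries from different groups, it was above 0 where the prefix was shared and below 0 where it differed (-0.325 to -0.00849). Deviations within a group sum to 0, so these signs are partly forced. The main fit has no prefix term. Adding one raised the genes called from 6347, 5417 and 8551 to 7093, 6082 and 9108 in the 3 comparisons. The lowest count of a member in a library was 154, for Nfatc2.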
